A study of Mus musculus with 42 samples.

Results

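Kit, Csf1r, Pdgfra and Pdgfrb, the genes of 4 cell surface receptors, were examined together with Kitl, Csf1, Pdgfa, Pdgfb and Pdgfc, the genes of their ligands, in mouse muscle precursors and satellite cells. These 9 genes were taken by symbol from the 24466 genes counted in the RNA-seq libraries, and all 9 were found. RNA was sequenced in 3 libraries of iPax7 cells grown with 0.75 µg/ml doxycycline (+Dox), in 2 libraries of the same cells 3 days after doxycycline was removed (-Dox), and in 3 libraries of satellite cells. The iPax7 line was grown from mouse embryonic stem cells in which doxycycline switches on a Pax7 transgene, and gives precursors of muscle. Its founding cells were sorted during embryoid body differentiation as PDGFαR+Flk-1- cells, that is, for the protein encoded by Pdgfra and against the protein encoded by Kdr, and both iPax7 groups were grown in serum with added FGF. The satellite cells, the stem cells of adult muscle, were isolated by their ZsGreen reporter of Pax7 from muscle of Pax7-ZsGreen mice and were not cultured. Other groups were used for chromatin only. These were iPax7 cells 12 h and 24 h after doxycycline was removed, myotubes grown from iPax7 cells and from C2C12 cells in medium with horse serum, and myoblasts of C2C12, an established mouse muscle line. The C2C12 myoblasts were either unmodified or carried flag-tagged Pax7 (Pax7-flag) or the tag alone (flag control). Chromatin was described from 10 ATAC-seq peak lists of open chromatin, 16 peak lists of histone marks and 1 list of Pax7 binding sites.

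The 4 receptors belong to 1 class of receptor tyrosine kinases, with immunoglobulin-like domains outside the cell and a split kinase domain inside it. Each is brought together in pairs by a dimeric ligand and then signals through adaptor proteins to the Ras, PI3-kinase and STAT pathways. In muscle, Pdgfra is best known from fibro-adipogenic progenitors, Pdgfrb from pericytes, Csf1r from macrophages and Kit from mast cells, while ligands of these receptors are made by many cell types. Kit ligand binds Kit, and Csf1 binds Csf1r. PDGF-A and PDGF-C bind mainly the receptor encoded by Pdgfra, and PDGF-B binds both PDGF receptors.

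Pax7 binding sites were assigned to 2 of the 9 genes. The share of all genes with such a site was not computed, so this count is not read as few or many. Of the 2455 sites, 3 had a start site of one of the 9 genes as the nearest protein-coding start site. These were 2 for Kitl and 1 for Pdgfa. Coordinates are those of mouse build NCBIM37 (mm9). The first Kitl site lies at chr10:99388989-99389833, 88.85 kb upstream of the nearest Kitl start and outside the gene. The second lies at chr10:99480241-99480993, in an intron, 2.067 kb downstream of the nearest Kitl start. The Pdgfa site, at chr5:139470302-139471136, overlaps annotated Pdgfa exons and lies 0.188 kb downstream of a start. The central 300 bases of both Kitl sites are shown, since Kitl was the only one of the 9 genes that passed the test between +Dox and -Dox. Both are given 5′ to 3′ on the + strand of the reference genome, at chr10:99389262-99389561 and chr10:99480468-99480767. Capitals mark matches, on either strand, to GTCAC, the core of a paired domain site, or to TGANTCA, the AP-1 site.
Kitl site 1: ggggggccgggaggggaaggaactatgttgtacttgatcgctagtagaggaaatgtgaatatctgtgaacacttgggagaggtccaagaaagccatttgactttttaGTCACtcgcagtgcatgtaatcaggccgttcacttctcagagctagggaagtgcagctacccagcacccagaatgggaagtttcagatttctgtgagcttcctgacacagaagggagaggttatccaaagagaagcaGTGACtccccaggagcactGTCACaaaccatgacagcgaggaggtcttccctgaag
Kitl site 2: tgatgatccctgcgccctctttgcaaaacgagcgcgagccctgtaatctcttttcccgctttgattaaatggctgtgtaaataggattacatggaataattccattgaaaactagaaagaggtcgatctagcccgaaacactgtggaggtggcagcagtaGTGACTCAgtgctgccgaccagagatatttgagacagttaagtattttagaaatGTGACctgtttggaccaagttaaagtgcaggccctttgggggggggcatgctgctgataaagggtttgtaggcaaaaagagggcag
Kitl site 1 held 3 matches to GTCAC. Kitl site 2 held 2, the first of which overlaps its single AP-1 match. The core GTCAC was found in 49.2% of the central 300 bases of all 2455 Pax7 sites, and the AP-1 site in 14.1%. No match to the palindromic paired homeodomain sites, TAAT facing its reverse complement with 2 or 3 bases between, or to the E-box CAGCTG was present in these windows. These were found in 1.02%, 1.67% and 25.6% of all sites. No sequence outside the Pax7 sites was searched, so how often such matches occur elsewhere is not known.

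The libraries held between 39010958 and 54674619 counts on genes. Reads that aligned to several places made up between 23.6% and 30.7% of counted reads in satellite cells and between 7.11% and 7.60% in iPax7 cells. Differences between satellite cells and iPax7 cells and differences between these kinds of library cannot be told apart. Levels are given in CPM, the reads on a gene per 1e6 reads of the effective library size. The labels were checked by Pax7, which fell from a mean of 271 CPM in +Dox to 5.18 CPM in -Dox, with 126 CPM in satellite cells. Myog, the regulator of muscle differentiation, had 87.8, 3700 and 51.8 CPM in the same order. The libraries of a group come from 1 GEO sample and are treated as replicates because the study describes them so. Nothing says that they were separate cultures or animals, so p-values measure the spread between these libraries, which may be technical.

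Kit, Csf1r and Pdgfra had at most 2 reads in any iPax7 library and were present in all satellite cell libraries, whereas Pdgfrb and the 5 ligands had reads in every iPax7 library. Between +Dox and satellite cells, 6 of the 9 genes passed edgeR's quasi-likelihood test (adjusted p under 0.05 over the 14836 genes tested), against 44.9% of all genes tested (19.8% higher and 25.1% lower in +Dox). Of the 6, Kit, Csf1r, Pdgfra, Pdgfrb and Kitl were lower in +Dox and Pdgfc was higher. Between -Dox and satellite cells 6 passed, against 39% of all genes (18.1% higher and 20.9% lower in -Dox), with Kit, Csf1r, Pdgfra, Kitl and Csf1 lower in -Dox and Pdgfc higher. Between -Dox and +Dox only Kitl passed, lower in -Dox, against 7.7% of all genes (4.66% higher and 3.04% lower in -Dox). The median log2 difference of the 9 genes was -4.09 between +Dox and satellite cells and -2.94 between -Dox and satellite cells, beside -0.17 and -0.23 over all genes tested. Between -Dox and +Dox it was -1.17, or 0 with the genes lacking reads set to their bounds, beside a median over all genes near 0. Kit, Csf1r and Pdgfra entered the test only through their reads in satellite cells, so that they had to differ from iPax7 cells. Neither the counts of 6 nor these medians are read as a result about the 9 genes. The adjusted p values of Kit, Csf1r and Pdgfra against satellite cells are given below as a description only. The comparisons share libraries, and their values are given side by side. An exact permutation test of 1 gene cannot give a p below 0.1 with 3 libraries against 2.

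**Figure D1:**
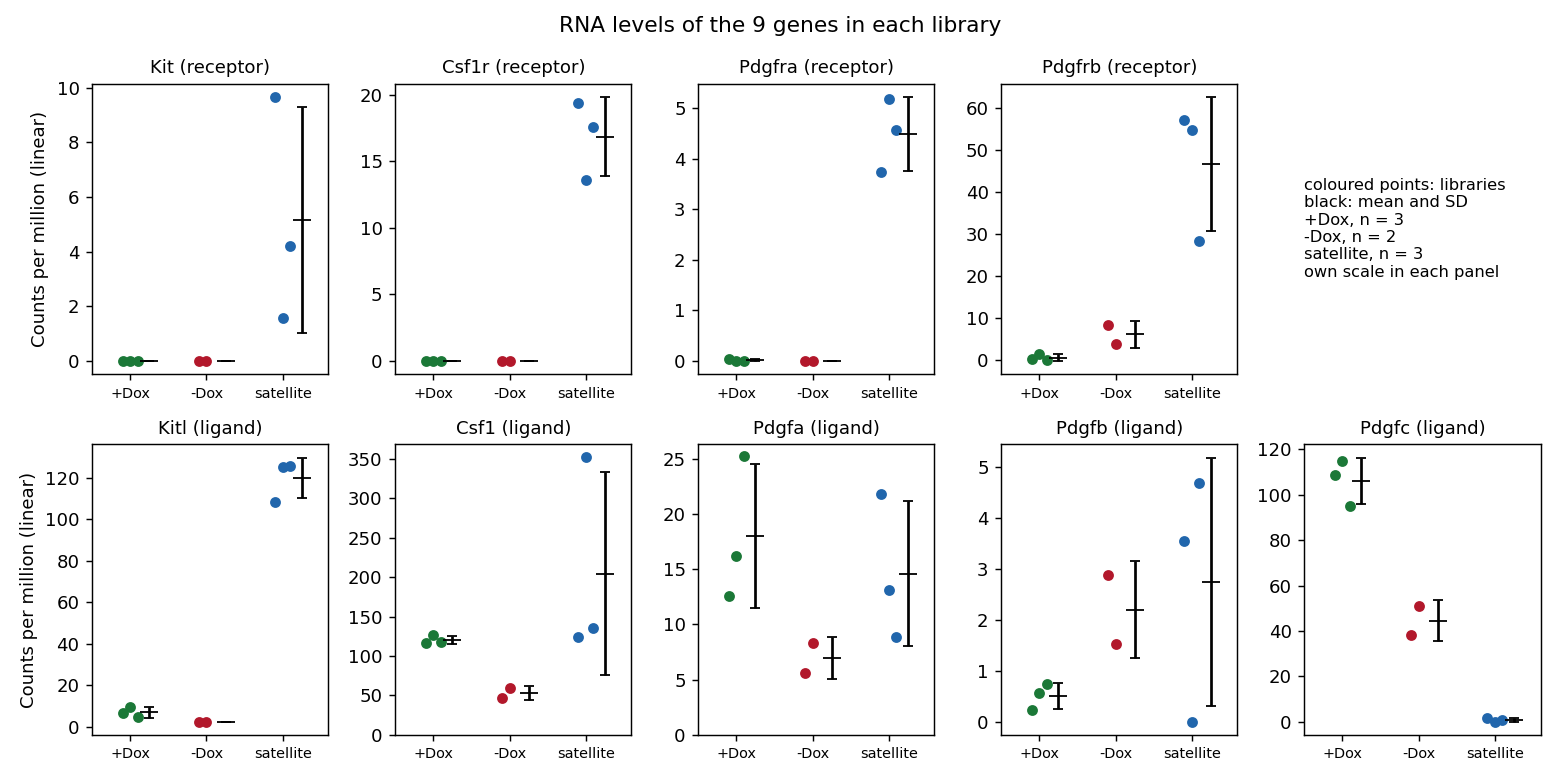
Level in CPM of each receptor and ligand gene (linear axes, 1 scale a panel) in 3 +Dox, 2 -Dox and 3 satellite cell libraries, with the mean and SD of each group in black. All 4 receptors sit highest in satellite cells, Kitl is between 108 and 126 CPM there and below 10 CPM in iPax7 cells, and Pdgfc sits lowest in satellite cells.

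Kit, the receptor of stem cell factor, had no read in any of the 5 iPax7 libraries. It lies at chr5:75970941-76052747 on the + strand. The 3 satellite cell libraries had 347, 56 and 151 reads, which is 9.66, 1.59 and 4.21 CPM. The satellite cell libraries thus differed among themselves by more than their mean of 5.15 CPM, while every one was above every iPax7 library. With a floor of 3 reads over the group, 0 reads allow up to 0.0168 CPM in +Dox and 0.0292 CPM in -Dox. Relative to satellite cells, Kit was at least 308-fold lower in +Dox (adjusted p = 0.00275, edgeR) and at least 177-fold lower in -Dox (adjusted p = 0.00743, edgeR). Without satellite replicate 1, which had the most reads, these bounds were 173-fold and 99.6-fold. Such bounds and intervals of reads cover counting error only. Of 6 mast cell markers other than Kit, 5 had reads in satellite cells, summing to 17.1, 17.7 and 33.9 CPM in the 3 libraries, and 5 were at 0 in all iPax7 libraries, where the sum was at most 1.43 CPM. The satellite cell library with the highest Kit level had the lowest mast cell sum. Tpsb2, at 3.23, 4.59 and 17.6 CPM in the 3 libraries, weighed most in the highest sum. Mcpt4, at 3.70, 0.454 and 2.01 CPM, had the order of Kit, and the other markers did not. Fcer1a, the alpha chain of the IgE receptor, was at 0 in all groups. The part of such cells in the Kit reads was not tested. In these bulk libraries, fewer cells of a type and less RNA per cell cannot be told apart.

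Csf1r, the receptor of Csf1 and of Il34, had 1 read in 1 of the 5 iPax7 libraries, a -Dox library, and none in the others. It lies at chr18:61265226-61291803 on the + strand. In satellite cells it had 698, 479 and 631 reads, or 19.4, 13.6 and 17.6 CPM, a narrow spread far above the iPax7 libraries. Csf1r in +Dox was at least 1006-fold lower (adjusted p = 0.000126, edgeR). Against the single read in -Dox the ratio was 1734, with a 95% counting interval from 311 to 68534 (adjusted p = 0.000483, edgeR). All 11 macrophage markers other than Csf1r had reads in satellite cells and summed to 316, 83.2 and 132 CPM in the 3 libraries. In +Dox 7 of the 11, among them Ptprc and the C1q genes, were at 0, and the sum lay between 5.72 and 11.0 CPM, and in -Dox 6 were at 0 and the sum was 6.45 and 8.65 CPM. The order of the macrophage sums over the 3 satellite cell libraries was that of Csf1r. Of the single markers, Adgre1, Cd68, Cd14, C1qa and C1qc had this order, and the others did not. The isolation by a Pax7 reporter is meant to leave out cells without Pax7, and the part of macrophages in the Csf1r reads was not tested. Exons of Csf1r overlap Hmgxb3 on the other strand, and whether the counting used strand is not given in the sources used here.

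Pdgfra, the receptor used to sort the cells from which the iPax7 line was grown, had 2 reads in 1 +Dox library and no read in the other 4 iPax7 libraries. It lies at chr5:75548316-75594229 on the + strand. Satellite cell libraries had 134, 183 and 164 reads, or 3.73, 5.19 and 4.57 CPM. These values lie close together and do not overlap with those of iPax7 cells. Relative to the 2 reads in +Dox the level in satellite cells was 402 times as high, with a 95% counting interval from 111 to 3325 (adjusted p = 0.00246, edgeR), and Pdgfra was at least 154-fold lower in -Dox (adjusted p = 0.00442, edgeR). The 8 fibro-adipogenic markers other than Pdgfra summed to 8560, 5889 and 3854 CPM in satellite cells, and to between 677 and 711 CPM in +Dox and 215 and 331 CPM in -Dox, where 3 and 4 of the 8, respectively, were above 1 CPM in every library. Gsn, the largest part of these sums, had 6045, 2945 and 2330 CPM in satellite cells and a mean of 530 CPM in +Dox. The order of the sums over the 3 satellite cell libraries is not that of Pdgfra. Of the single markers, Dpt, at 198, 1063 and 276 CPM, had the order of Pdgfra, and the others did not. The part of fibro-adipogenic cells in the Pdgfra reads was not tested. Kdr, which encodes the VEGF receptor Flk-1 and was used to remove cells from the sort, had 1 read in the 5 iPax7 libraries together and 24.6, 44.7 and 35.3 CPM in satellite cells. Pdgfra and Kdr flank Kit, with 376.7 kb between Pdgfra and Kit, 276.1 kb between Kit and Kdr, and no protein-coding gene in either gap.

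Pdgfrb, the receptor of PDGF-B, was the only one of the 4 receptors with reads in every iPax7 library. It lies at chr18:61204804-61244715 on the + strand, 20.51 kb before Csf1r, again with no protein-coding gene between. The +Dox libraries had 0.111, 1.5 and 0.0963 CPM, the -Dox libraries 8.40 and 3.83 CPM, and the satellite cell libraries 57.1, 54.7 and 28.4 CPM. The groups did not overlap and stood in the order +Dox, -Dox, satellite cells, although 1 +Dox library was more than 10 times as high as the others. Pdgfrb was 82.0-fold lower in +Dox than in satellite cells (log2 difference -6.34, SE 1.09, adjusted p = 0.00150, edgeR), and without +Dox replicate 2, the high library, the log2 difference was -8.74 (adjusted p = 0.000163, edgeR). The rise from +Dox to -Dox was 10.7-fold by the means but did not pass the test (log2 difference 3.40, SE 1.01, adjusted p = 0.0756, edgeR), and without +Dox replicate 2 it passed (log2 difference 5.85, adjusted p = 0.00255, edgeR). The -Dox and satellite cell levels, 7.65-fold apart, narrowly missed the threshold (log2 difference -2.94, SE 1.09, adjusted p = 0.0571, edgeR), and passed it under 6 of 15 alternatives. The 8 pericyte and smooth muscle markers other than Pdgfrb summed to between 81.3 and 163 CPM in +Dox, 1160 and 1162 CPM in -Dox, and 704 and 1074 CPM in satellite cells. In -Dox nearly all of this sum was Acta2, the smooth muscle actin gene, which had 1142 and 1139 CPM there, 131, 148 and 66.1 CPM in +Dox, and 78.4, 310 and 236 CPM in satellite cells. Rgs5 and Notch3, markers of pericytes, had means of 0.906 and 9.99 CPM in -Dox, 0.326 and 9.18 CPM in +Dox, and 271 and 252 CPM in satellite cells. The part of such cells in the Pdgfrb levels was not tested.

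**Figure D2:**
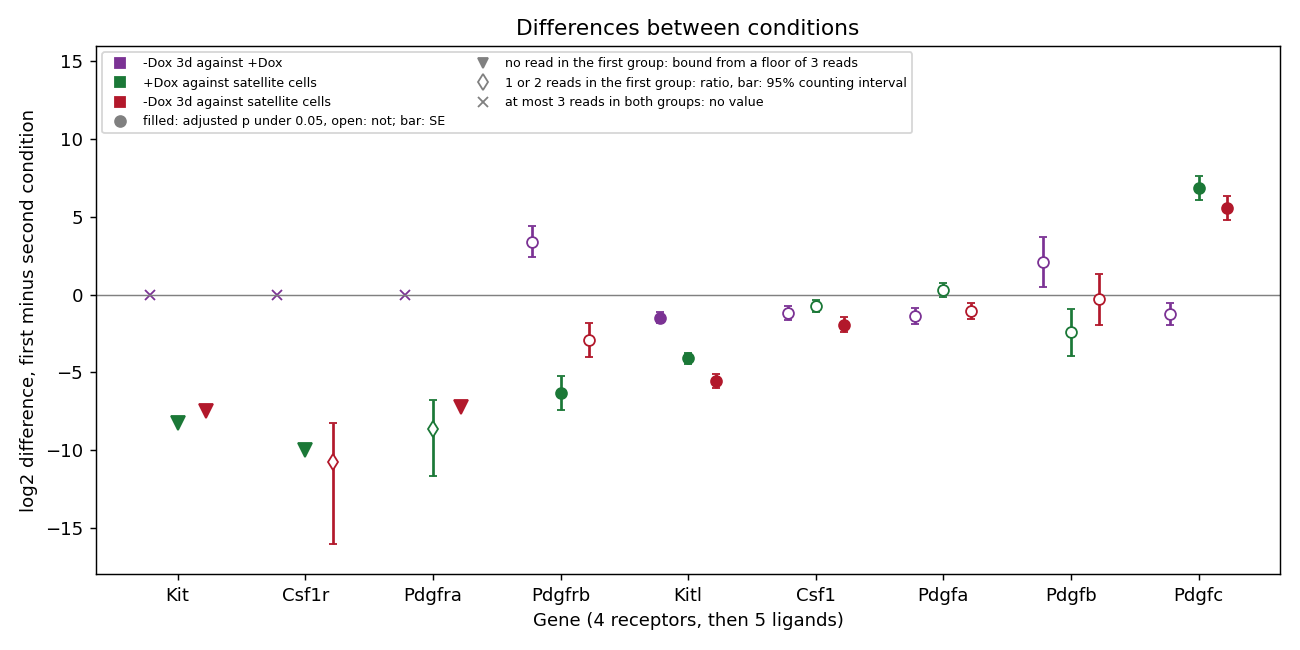
Log2 difference between the first and the second condition named, for 4 receptors and 5 ligands in 3 comparisons, with the SE of edgeR's fit, filled circles marking an adjusted p under 0.05. Triangles are bounds where a group had no read, diamonds are ratios of 1 or 2 reads with 95% counting intervals, and crosses mark genes with at most 3 reads in both groups. Kitl lies below 0 in all 3 comparisons, and Pdgfc lies above 5 in both comparisons with satellite cells.

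Kitl, the membrane-bound or shed ligand of Kit, differed in all 3 comparisons. It lies at chr10:99478264-99563047 on the + strand. The +Dox libraries had 6.83, 9.69 and 4.51 CPM, the -Dox libraries 2.49 and 2.52 CPM, and the satellite cell libraries 108, 125 and 126 CPM. The groups did not overlap. Kitl fell 2.80-fold from +Dox to -Dox (log2 difference -1.49, SE 0.369, adjusted p = 0.0406, edgeR). This call is close to its threshold: it was lost in 8 of 15 alternatives, in 6 that left out 1 library, with only the libraries compared (adjusted p = 0.0902, edgeR) and when replicate numbers were blocked (adjusted p = 0.0652, edgeR). Over the 15 it had log2 differences from -1.72 to -1.16 and adjusted p values from 0.00184 to 0.252. Without +Dox replicate 1 or 2, -Dox replicate 1 or 2, or satellite replicate 2 or 3, the adjusted p (edgeR) was 0.0890, 0.132, 0.252, 0.241, 0.0520 and 0.0550. Kitl was 17.1-fold lower in +Dox than in satellite cells (log2 difference -4.09, SE 0.350, adjusted p = 3.88e-05, edgeR). In -Dox it was 47.9-fold lower (log2 difference -5.58, SE 0.453, adjusted p = 5.28e-05, edgeR), and both of these calls were kept in all 15 alternatives.

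Csf1, the ligand of Csf1r that supports macrophages, was abundant in all 3 groups. It lies at chr3:107543966-107563387 on the - strand. The +Dox libraries had 117, 126 and 118 CPM and the -Dox libraries 47.1 and 59.5 CPM, with no overlap. The satellite cell libraries had 124, 353 and 136 CPM, of which the lowest lay within the range of +Dox and 1 stood apart. The 2.26-fold difference between -Dox and +Dox did not pass the test (log2 difference -1.17, SE 0.448, adjusted p = 0.161, edgeR), although it passed without satellite replicate 2 (adjusted p = 0.0247, edgeR) and in a fit of only the libraries compared (adjusted p = 0.0126, edgeR). Csf1 was 3.83-fold lower in -Dox than in satellite cells (log2 difference -1.94, SE 0.464, adjusted p = 0.00952, edgeR), a call lost without -Dox replicate 1 (adjusted p = 0.0875, edgeR) or 2 (adjusted p = 0.0560, edgeR). Without satellite replicate 2, the library that stood apart, this log2 difference was -1.29 (adjusted p = 0.00719, edgeR). Between +Dox and satellite cells no difference was detected (log2 difference -0.76, SE 0.388, adjusted p = 0.135, edgeR).

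Pdgfc, a PDGF chain that is activated by cleavage, was, of the 5 ligand genes, the only one that passed the test as higher in both iPax7 groups than in satellite cells. It lies at chr3:80840338-81017962 on the + strand. The +Dox libraries had 109, 115 and 94.9 CPM, the -Dox libraries 38.1 and 50.8 CPM, and the satellite cell libraries 1.70, 0.113 and 0.976 CPM. The groups did not overlap. Pdgfc was 114-fold higher in +Dox than in satellite cells (log2 difference 6.83, SE 0.768, adjusted p = 0.000157, edgeR) and 47.8-fold higher in -Dox (log2 difference 5.58, SE 0.748, adjusted p = 0.000495, edgeR), and both calls were kept in all 15 alternatives. Without satellite replicate 1 the log2 differences were 7.59 and 6.34. The 2.39-fold lower mean in -Dox than in +Dox did not pass (log2 difference -1.26, SE 0.684, adjusted p = 0.335, edgeR), except in a fit of only the libraries compared (adjusted p = 0.0138, edgeR). Exons of Pdgfc overlap the transcript Gm16000 on the other strand.

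Pdgfa and Pdgfb, which encode the A and B chains of PDGF, passed in none of the 3 comparisons. Pdgfa lies at chr5:139451968-139473324 on the - strand and had 12.6, 16.2 and 25.3 CPM in +Dox, 5.60 and 8.30 CPM in -Dox, and 21.8, 13.1 and 8.90 CPM in satellite cells. The -Dox libraries lay below all others. The log2 difference was -1.38 between -Dox and +Dox (SE 0.538, adjusted p = 0.173, edgeR), -1.07 between -Dox and satellite cells (SE 0.532, adjusted p = 0.134, edgeR) and 0.30 between +Dox and satellite cells (SE 0.459, adjusted p = 0.622, edgeR). Its exons overlap 6330403L08Rik on the other strand. Pdgfb lies at chr15:79826330-79845238 on the - strand and had 0.222, 0.564 and 0.732 CPM in +Dox and 2.88 and 1.52 CPM in -Dox, without overlap. In satellite cells 2 libraries had 3.54 and 4.69 CPM and 1 had no read, so that this group spanned the whole range. The log2 difference was 2.12 between -Dox and +Dox (SE 1.61, adjusted p = 0.519, edgeR) and -2.43 between +Dox and satellite cells (SE 1.52, adjusted p = 0.218, edgeR), the latter passing without satellite replicate 2 (log2 difference -3.02, adjusted p = 0.0261, edgeR).

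After removal of doxycycline the means of 4 ligands, Kitl, Csf1, Pdgfa and Pdgfc, were lower and those of Pdgfb and Pdgfrb were higher. In each of these 6 genes the 2 -Dox libraries did not overlap with the 3 +Dox libraries. The same was seen for 45.3% of all genes tested, 22.7% in each direction, so that the lack of overlap by itself does not set the 6 genes apart. Against satellite cells 6 of the 9 genes did not overlap in +Dox, 5 lower and 1 higher, beside 56.5% of all genes (30.2% lower and 26.3% higher). In -Dox it was 8 of 9, 7 lower and 1 higher, beside 64.3% (33.7% lower and 30.6% higher). Both counts against satellite cells include Kit, Csf1r and Pdgfra, which had to differ, and are not read as a result about the 9 genes.

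Per kilobase of exon (RPKM), Csf1 and Pdgfc stood highest of the 9 genes in +Dox, at 22.9 ± 0.993 and 20.9 ± 2.00 RPKM (SD, n = 3). Pdgfa followed at 5.78 ± 2.10 and Kitl at 1.20 ± 0.445 RPKM, and no other exceeded the 0.173 ± 0.0889 RPKM of Pdgfb. In -Dox (n = 2) Csf1 and Pdgfc led again, at 10.1 ± 1.67 and 8.74 ± 1.77 RPKM, before Pdgfa at 2.23 ± 0.612, Pdgfrb at 1.12 ± 0.590, Pdgfb at 0.754 ± 0.328 and Kitl at 0.428 ± 0.00370 RPKM. In both groups Csf1 and Pdgfc did not differ beyond their spread. The same held in -Dox for Pdgfa and Pdgfrb, for Pdgfrb and Pdgfb, and for Pdgfb and Kitl. With the length of the longest transcript Pdgfc led Csf1 in +Dox (30.2 against 28.8 RPKM). In satellite cells (n = 3) the order was Csf1 at 38.8 ± 24.5, Kitl at 20.5 ± 1.68, Pdgfrb at 8.54 ± 2.91, Pdgfa at 4.68 ± 2.11 and Csf1r at 3.23 ± 0.573 RPKM. Pdgfb, Kit and Pdgfra, at 0.939 ± 0.837, 0.884 ± 0.706 and 0.668 ± 0.109 RPKM, did not differ beyond their spread, nor did Csf1 and Kitl. The same held for Pdgfrb and Pdgfa, and for Pdgfa and Csf1r. The mean of Pdgfc was lowest, at 0.183 ± 0.156 RPKM, but did not differ from Pdgfb or Kit beyond their spread. In +Dox Pdgfrb was the highest of the 4 receptors, at 0.104 ± 0.148 RPKM.

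Related receptors, a receptor-like gene and ligands were described by 11 further genes. Between +Dox and satellite cells 8 of the 11 were lower in +Dox and 1 was higher, with a median log2 difference of -4.54, beside 25.1% lower and 19.8% higher and a median of -0.17 over all genes tested. Kdr, Flt1 and Flt3 entered the test only through their reads in satellite cells and had to be lower in iPax7 cells. Nothing is therefore read from this count and median, or from the adjusted p values of Kdr, Flt1 and Flt3 against satellite cells. Lower were the VEGF receptors Kdr, Flt1 and Flt4, the ligands Vegfa and Vegfc, the receptor Flt3, Il34, which is the second ligand of Csf1r, and Pdgfrl, a PDGF receptor-like gene. Vegfa, the main ligand of Kdr, had a log2 difference of -3.34 (adjusted p = 0.000279, edgeR), and Flt3, with no read in +Dox, was at least 52.3-fold lower (adjusted p = 0.0492, edgeR). Flt3 had 66, 0 and 28 reads in satellite cells, so that 1 library had none and overlapped with +Dox. Pdgfrl had means of 3.46 CPM in +Dox, 1.98 CPM in -Dox and 80.4 CPM in satellite cells (log2 difference of +Dox from satellite cells -4.54, SE 0.639, adjusted p = 0.000520, edgeR). Vegfb, a ligand of Flt1, was the gene that was higher, at 9.54 CPM in +Dox and 1.79 CPM in satellite cells (log2 difference 2.42, SE 0.505, adjusted p = 0.00425, edgeR). Il34 had 1.06, 0.517 and 1.46 CPM in +Dox and 16.1, 2.69 and 2.76 CPM in satellite cells, 1 of which stood far above the others (log2 difference -2.82, SE 0.999, adjusted p = 0.0440, edgeR). Between -Dox and satellite cells 5 were lower in -Dox and 1 was higher (median -4.74), beside 20.9% and 18.1% of all genes (median -0.23), with the same limit. Between -Dox and +Dox 1 of the 11 passed, beside 7.7% of all genes. This was Flt1, which had 1, 0 and 1 reads in +Dox and 3 and 28 reads in -Dox, a ratio of 27 with a 95% counting interval from 6.87 to 233 (adjusted p = 0.0393, edgeR). Pdgfd, the fourth PDGF chain and a ligand of Pdgfrb, had means of 4.39, 15.2 and 8.59 CPM in +Dox, -Dox and satellite cells and passed in none of the comparisons (adjusted p = 0.0755 between -Dox and +Dox, edgeR). The 8 endothelial markers, which include Kdr and Flt1, summed to between 391 and 566 CPM in satellite cells and to at most 3.54 CPM in iPax7 cells, and their part in these differences was not tested.

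Signalling genes downstream of the receptors were present in all groups. Of 52 adaptors, kinases and phosphatases 51 were tested. Between -Dox and +Dox 3 were higher in -Dox and 1 was lower, and the median log2 difference was -0.07, beside 4.66% higher and 3.04% lower over all genes, so that the share is near the background and is not a result about the list. The 3 were Fyn, a Src-family kinase, at 12.0 CPM in +Dox and 70.6 CPM in -Dox (log2 difference 2.56, SE 0.427, adjusted p = 0.00621, edgeR), Akt2, a kinase downstream of PI3-kinase, at 105 and 408 CPM (log2 difference 1.96, SE 0.402, adjusted p = 0.0179, edgeR), and Grb2, the adaptor that links receptors to Ras, at 22.8 and 59.4 CPM (log2 difference 1.38, SE 0.338, adjusted p = 0.0384, edgeR). Ptprj, a receptor-type phosphatase, fell from 34.0 to 5.14 CPM (log2 difference -2.73, SE 0.487, adjusted p = 0.00888, edgeR). Against satellite cells 6 of the 51 were higher and 19 lower in +Dox (median -0.72), beside 19.8% and 25.1% of all genes (median -0.17), and 3 were higher and 16 lower in -Dox (median -0.64), beside 18.1% and 20.9% (median -0.23). Vav1, a signalling protein of blood cells, which entered the test only through satellite cells, had no read in iPax7 cells and 4.82, 2.07 and 1.23 CPM in satellite cells. Hras, one of the Ras proteins, was higher in -Dox than in satellite cells, at 13.6 against 3.86 CPM (log2 difference 1.81, SE 0.525, adjusted p = 0.0225, edgeR).

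Of 11 proteases that process these ligands, 0 passed between -Dox and +Dox by edgeR, although 2 had an unadjusted p under 0.05 and 2 passed by DESeq2 (median log2 difference -0.33, with 7.7% of all genes called by edgeR and a median near 0). Between +Dox and satellite cells 1 was higher and 3 were lower in +Dox, and between -Dox and satellite cells 1 was higher and 4 were lower in -Dox, with medians of -0.25 and -0.62. Over all genes 19.8% were higher and 25.1% lower in +Dox (median -0.17) and 18.1% higher and 20.9% lower in -Dox (median -0.23), so these few calls are not read as a result about the proteases. Pcsk5 and Pcsk6, convertases that cleave precursor proteins, had no read in -Dox and means of 16.1 and 2.88 CPM in satellite cells. In -Dox they were thus at least 552-fold and 98.8-fold lower. Pcsk5, with 34, 0 and 3 reads in +Dox, entered the test only through its reads in satellite cells. It therefore had to be lower in -Dox, and its call is not read as a result. Plat, the protease that activates PDGF-C, had 74.3 CPM in +Dox, 76.8 CPM in -Dox and 316 CPM in satellite cells (log2 difference of +Dox from satellite cells -2.09, SE 0.330, adjusted p = 0.000965, edgeR). Plat is outside the rule for named genes and was chosen after its values were seen.

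The feedback regulators and early targets of the pathway were 14 genes. Between -Dox and +Dox 2 were lower in -Dox, with a median log2 difference of -0.92, beside 3.04% of all genes lower in -Dox and a median near 0. These were Etv4, an Ets factor, at 24.9, 31.7 and 42.2 CPM in +Dox and 5.71 and 6.4 CPM in -Dox (log2 difference -2.44, SE 0.629, adjusted p = 0.0457, edgeR), and Myc, at 151 and 81.3 CPM (log2 difference -0.89, SE 0.232, adjusted p = 0.0477, edgeR). Between +Dox and satellite cells 4 were higher and 8 lower in +Dox (median -2.21), beside 19.8% and 25.1% of all genes (median -0.17), and between -Dox and satellite cells 2 were higher and 8 lower in -Dox (median -2.55), beside 18.1% and 20.9% (median -0.23). Fos, an immediate early gene, had 6.78, 11.8 and 6.59 CPM in +Dox and 9001, 3354 and 4731 CPM in satellite cells, a difference of 679-fold (log2 difference -9.41, SE 0.564, adjusted p = 7.75e-06, edgeR). The others that were lower were Egr1, Myc, Dusp5 and the signalling inhibitors Spry1, Spry2, Spry4 and Spred1, of which Dusp5 and the inhibitors were named after their values were seen. Egr1, another immediate early gene, was 97.8-fold higher in satellite cells than in +Dox (log2 difference -6.61, SE 0.362, adjusted p = 5.42e-06, edgeR). Higher in +Dox were Etv4, at 43.4-fold, Ccnd1, the cyclin of early cell cycle, at 7.74-fold (log2 difference 2.95, SE 0.234, adjusted p = 2.64e-05, edgeR), and Dusp4, a phosphatase of MAP kinases, at 7.63-fold (log2 difference 2.93, SE 0.898, adjusted p = 0.0251, edgeR). The fourth was Dusp6, named after its values were seen, at 366 CPM in +Dox and 135 CPM in satellite cells.

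The genes whose levels followed those of the 9 most closely over the 8 libraries were found by Pearson's r on log2 CPM, as a description. For Kit these were Gpr171 and Ppef2 (both 1.00 when rounded), for Csf1r Oasl1 and Galnt16 (both 0.999), and for Pdgfra Smoc2 and Sim2 (both 0.999). For Kitl they were Abi3bp and Usp7 (both 0.994), for Pdgfrb Eya1 (0.990) and Zfhx2 (0.988), for Pdgfc Psmd5 (0.995) and Pddc1 (0.994), and for Csf1 Mars2 (0.985) and Setd1a (0.972). The libraries of a condition share their source, so that such an r mostly compares 3 conditions. Such likeness was common where the levels separate satellite cells from iPax7 cells, with 1859 genes (12.5% of those tested) over 0.9 for Csf1r and 1902 (12.8%) for Pdgfra, and rare for Csf1, with 60 genes (0.404%).

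Open chromatin at the start sites did not separate the genes with RNA from those without. Peaks were sought within 1000 bases of any annotated start in peak lists that were each called on merged replicates, so that no test over samples was possible. In +Dox 8 of the 9 genes had an ATAC-seq peak, beside 63% of 22372 protein-coding genes, in -Dox at 3 days 7 (65.4%), and in satellite cells 6 (58.5%). Kit had none in any of the 10 lists. Pdgfra, with almost no read in iPax7 cells, had peaks with a fold enrichment of 11.9 in +Dox, 7.71 and 14.4 at 12 and 24 h without Dox, 19.9 at 3 days and 10.5 in satellite cells. Csf1r had peaks in the 4 iPax7 lists, with fold enrichments from 4.99 to 8.76, and none in satellite cells, where its RNA was found. This contrast depends on the window. With 500 bases Csf1r had no peak in +Dox, and with 2500 bases it had one in satellite cells. Fold enrichment depends on the depth of each list and was not compared by a test.

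H3K27Ac, a mark of active enhancers and promoters, was found at the start sites of Csf1, Pdgfa, Pdgfc and Pdgfrb in +Dox, beside 47.9% of all genes, and of Csf1, Pdgfa and Pdgfc at 3 days without Dox, beside 45.1%. Over each gene and 10 kb to each side, H3K27Ac peaks covered 33.0 kb of Csf1 in +Dox, 83.6% of the span, and 24.9 kb (63.3%) in -Dox. For Pdgfc the covered length was 53.5 kb (27.1%) in 78 peaks in +Dox and 21.3 kb (10.8%) in 50 peaks in -Dox. The median gene was covered over 1.88% in +Dox and 1.32% in -Dox, and the whole lists covered 73.1 and 49.2 Mb with mean peak lengths of 612 and 546 bases, so that the -Dox list as a whole held less. Kit, Csf1r and Pdgfra had no H3K27Ac peak in either list, Kitl had none in +Dox and 0.366 kb in -Dox, and Pdgfrb had 0.423 kb in +Dox and none in -Dox.

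H3K27me3, the Polycomb mark of silenced genes, was found at the start sites of Kit and Pdgfra in all 4 lists, iPax7 cells with and without Dox and C2C12 myoblasts with a flag control or with Pax7-flag. Pdgfra also had H3K4me3, which the paper treats as an active mark, at a start site in all 4 lists, and H3K27Ac in both C2C12 lists. Kit had neither of these in any list. With 500 bases in place of 1000 around a start, Pdgfra had H3K27me3 in all 4 lists and Kit in all but -Dox. In +Dox 5 of the 9 genes carried it there, beside 21.7% of all genes, and in -Dox 4, beside 19.9%, of which only Pdgfra had it within 500 bases. Pdgfa had both H3K27Ac and H3K27me3 within 1000 bases of a start in +Dox and in -Dox, but H3K27me3 within 500 bases in neither. A peak at any of its 4 annotated starts counted, so the marks need not share a start. Over Pdgfb and its flanks both marks were present too, H3K27Ac over 9.24% in +Dox and 15.9% in -Dox and H3K27me3 over 11.4% and 1.42%. Its peaks covered 14.9 kb (22.6%) of Pdgfra and its flanks in +Dox and 13.6 kb (20.6%) in -Dox, more than in 91.6% and 92% of all genes. Csf1r was covered over 11.2% and 9.48%, and Pdgfrb over 9.98% and 10.3%. Kitl went from 11.6 kb in +Dox to 3.89 kb in -Dox and Pdgfb from 4.42 to 0.551 kb, and Kitl had the mark within 1000 bases of a start in +Dox and not in -Dox, where it had it within 2500 bases, and in C2C12 cells with Pax7-flag and not with the flag control, while the whole list went from 91.7 to 65.9 Mb with mean peak lengths of 514 and 471 bases. Csf1 and Pdgfc, the genes with the highest levels per length in iPax7 cells, had no H3K27me3 peak in any list. Kit was covered over 1.61% in +Dox and 0.811% in -Dox, and over 21.3% in C2C12 cells with the flag control.

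**Figure D3:**
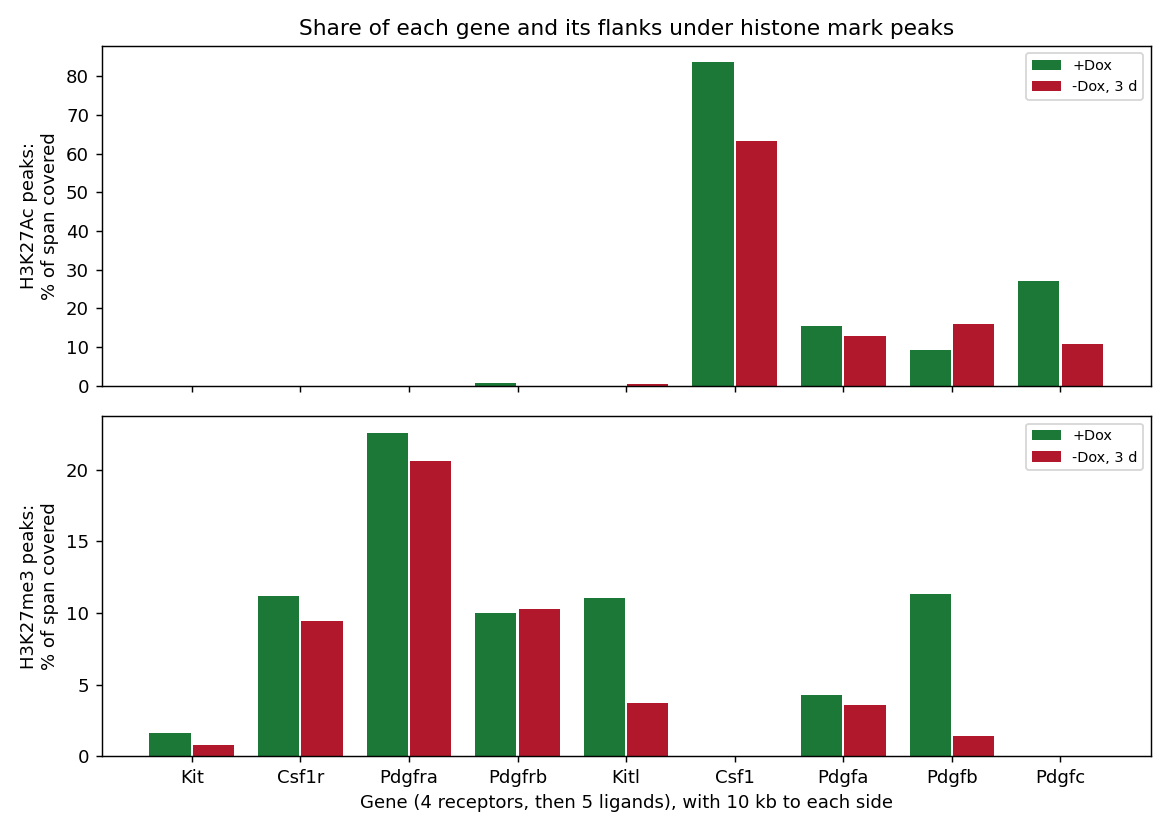
Percent of each gene and its flanks of 10 kb that lies under H3K27Ac (top) or H3K27me3 (bottom) peaks in iPax7 cells with Dox and 3 days without Dox, from 1 merged peak list each and thus without error bars. Csf1 and Pdgfc are covered by H3K27Ac over 83.6% and 27.1% in +Dox and not at all by H3K27me3, whereas Kit, Csf1r and Pdgfra have no H3K27Ac.

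At the 3 Pax7 sites an ATAC-seq peak was listed in iPax7 cells in +Dox and at 12 h, 24 h and 3 days without Dox. The list of sites had been limited to those bound in +Dox and not in -Dox, and 95.4% of all sites had an ATAC-seq peak in +Dox. At Kitl site 1, whose sequence is given above, the fold enrichment was 16.4 in +Dox, 8.64 at 12 h, 7.03 at 24 h and 9.25 at 3 days without Dox. No peak was listed there in satellite cells, although 53% of all sites had one, nor in either kind of myotube, C2C12 myoblasts or the flag control. In C2C12 cells with Pax7-flag a peak of 7.22 was listed, as at 71% of all sites, against 38.6% with the flag control. H3K27Ac was present at Kitl site 1 in +Dox and not at 3 days without Dox, and present with Pax7-flag and not with the flag control. Over all sites the shares with H3K27Ac were 73.2% and 37.9%, and 64.4% and 40.6%.

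At Kitl site 2, in the intron, the fold enrichment was 13.9 in +Dox, 4.20 at 12 h, 4.93 at 24 h and 3.33 at 3 days. It was 4.49 in satellite cells, 4.42 with the flag control and 19.6 with Pax7-flag, and no H3K27Ac peak was found in any of the 4 lists. H3K4me1, a mark of enhancers, was present at both Kitl sites in all 4 lists. An H3K27me3 peak overlapped Kitl site 2 in both iPax7 lists without covering its centre, and 4.97% and 3.3% of all sites had any such overlap in +Dox and -Dox. The Pdgfa site had a peak in all 10 lists, from 4.32 in C2C12 myoblasts to 26.0 with Pax7-flag, with 21.3 in +Dox, 15.6 at 3 days and 7.62 in satellite cells, and H3K27Ac in all 4 lists. ATAC-seq peaks were listed at all 3 sites after 3 days without Dox, as at 68% of all sites.

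**Figure D4:**
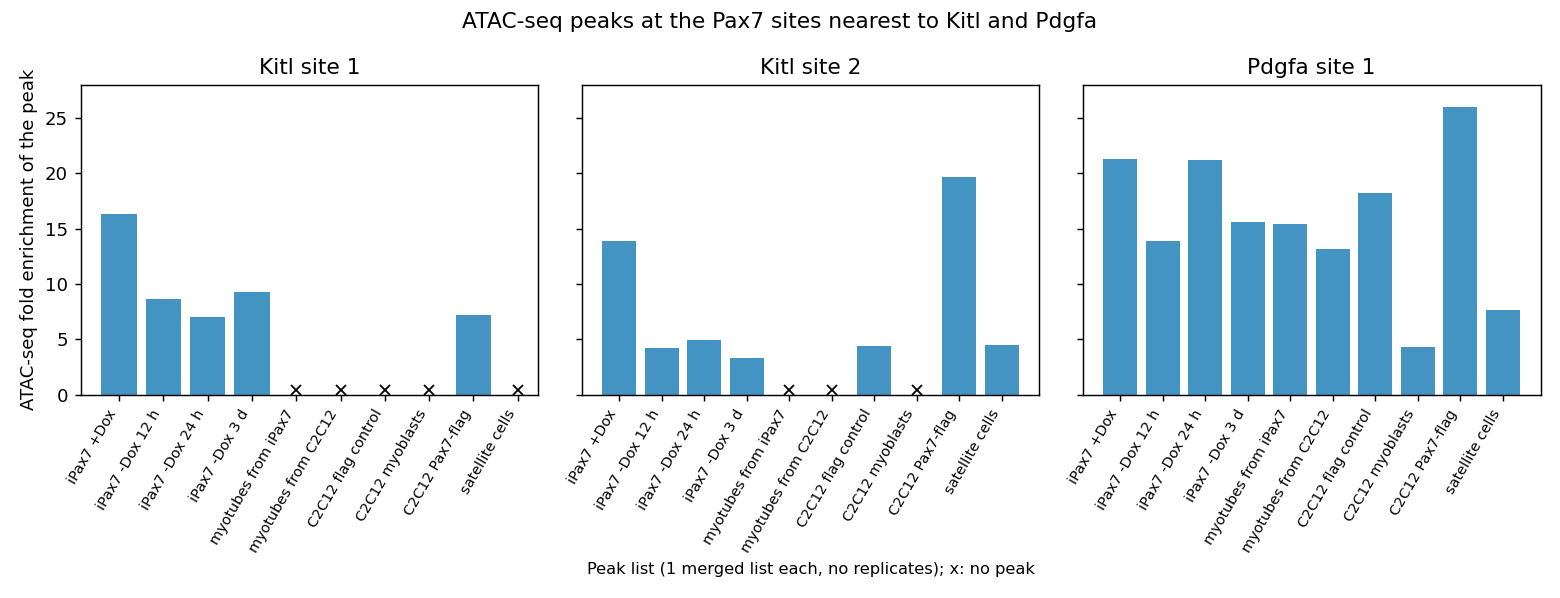
Fold enrichment of the ATAC-seq peak (linear axes from 0) at the Pax7 sites nearest to Kitl and Pdgfa, 1 bar for each of 10 merged peak lists, with crosses where no peak was listed. Both Kitl sites are highest among iPax7 lists in +Dox (16.4 and 13.9) and lower at 12 h, 24 h and 3 days, and the Pdgfa site has a bar in all lists.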

How the data were processed

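The authors deposited, for each RNA-seq library, the number of reads counted on each gene symbol, as raw counts without normalization. The submitters' processing notes name TopHat2 2.0, HTSeq 0.6 and edgeR, and build mm9. Rows that name no gene (9.19% to 32.4% of rows' reads, mostly reads with several alignments) were left out. CPM are counts per 1e6 counts of the TMM effective library size, and RPKM divide them by the exon union of GENCODE M1. edgeR 4.0.16 (R 4.3.3) tested all 8 libraries with 1 mean per condition on the 14836 genes that passed filterByExpr, by its quasi-likelihood test, and p-values were adjusted by Benjamini-Hochberg over these genes. The SE of a log2 difference is its size divided by the square root of F. Log2 values use edgeR's prior count. Reads bound a gene at 0 with a floor of 3 reads over the group, and intervals for 1 to 3 reads are exact binomial (95%). The scripts were tested on simulated data.

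The deposited ATAC-seq lists give the fold enrichment and −log10 q of MACS2 peaks called by the authors on merged replicates (Bowtie2 2.2.6, Picard and MACS2 2.0.10 in the processing notes), and rows of 1 interval were taken as 1 peak with its highest fold enrichment. The authors called histone peaks with Qeseq on merged replicates, and their lists hold positions only, as does the list of Pax7 sites, found in at least 2 +Dox replicates and in none without Dox. A Pax7 site was given to the gene with the nearest start of a protein-coding transcript, and peaks at a site overlap it by at least 1 base. Coordinates, lengths and sequences come from NCBIM37 with GENCODE M1. The peaks of all 27 lists lie within its chromosomes. Motifs were searched on both strands.

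The named genes are the 9 genes and the 11 genes of related receptors and ligands. Also named are the 3 called pathway genes with the largest change in each comparison and direction, and the 2 genes most like each called gene. The genes and lists were chosen with earlier results of these data known. Alternatives used DESeq2 1.42.0, other scalings and filters, only the libraries compared, the replicate number as a block, each library left out, other windows and peak thresholds, and the longest transcript.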

Additional observations from a re-analysis of the deposited data

How the results depend on the processing

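The 15 alternatives kept the direction and the call of 334 of 360 log2 differences of the 9 genes. Between -Dox and +Dox, where 1 gene passed, 2 passed with only the libraries compared (Csf1 and Pdgfc, with Kitl lost) and 2 with DESeq2 (Kitl and Pdgfrb), and leaving out 1 library gave 0 to 1 (Pdgfrb in place of Kitl without +Dox replicate 2, Csf1 in place of Kitl without satellite replicate 2). In that comparison the number of all genes called was 1142, against 2284 with DESeq2, 2155 with only the libraries compared, and 488 to 1444 with 1 library left out (674 and 630 without +Dox replicate 1 and 2, 508 and 488 without -Dox replicate 1 and 2). Of the 9 genes, 6 to 7 passed between +Dox and satellite cells and 5 to 7 between -Dox and satellite cells with 1 library left out. The number of all genes called between -Dox and satellite cells was 5780, and 3204 and 3382 without -Dox replicate 1 and 2. Same-numbered libraries did not deviate together (7 pairs, r from -0.05 to 0.03), so the numbers do not pair them. With the replicate number as a block 0 of the 9 genes passed between -Dox and +Dox and 742 genes in all, and the Pdgfb difference between -Dox and satellite cells, never called, went from -0.32 to 0.54. It also changed sign without -Dox replicate 2 (0.13) and without satellite replicate 3 (0.31), within a range from -0.90 to 0.31 over the libraries left out. That of Pdgfa between +Dox and satellite cells, never called, changed sign without +Dox replicate 3, within a range from -0.024 to 0.71. The causes were not tested.

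With a window of 2500 bases 8 genes had H3K4me1 at a start site with the flag control, in place of 5, and with 500 bases 1 had H3K27me3 in -Dox, in place of 4. When a peak had to cover the centre of a Pax7 site, 0 of the 3 sites had an ATAC-seq peak in C2C12 myotubes or myoblasts, in place of 1 each, 1 in place of 3 had H3K4me3 in +Dox, 0 in place of 1 had it with Pax7-flag, and 0 in place of 1 had H3K27me3 in +Dox and in -Dox. The other 81 of 89 peak counts stayed within 1.5 times. Low counts limit Kit, Csf1r, Pdgfra and Pdgfb in iPax7 cells, and 2 -Dox libraries limit the comparisons that use them.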
